A study of Mus musculus with 6 samples.

Results

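The enzymes that build the N-glycan precursor and pass it to new proteins were read in mouse liver that had received a vector for the PI3K subunit Pik3cd. The list held 39 genes of this pathway, chosen by name but with earlier results of these data known. Of these, 37 matched a probe set among the 22206 on the array. Dpm1 and Alg10b had no match and were not analysed here. The expression of the 37 genes was measured on 6 Clariom S arrays, 3 in the group AAV-control (arrays 48, 49 and 50) and 3 in the group AAV-PIK3CD (arrays 51, 52 and 53). By the methods of the study, the animals were male C57BL/6 mice injected at 8 weeks of age with an adeno-associated virus and killed at 12 weeks. Its cargo was placed under the thyroxine-binding globulin promoter, which is active in hepatocytes. The AAV-PIK3CD vector held the mouse coding sequence of Pik3cd, which encodes the delta isoform of the PI3K catalytic subunit. The control vector is described as carrying EGFP, a fluorescent protein, in one place and as empty in the array methods, so the groups may differ in EGFP as well. The labels call the tissue tumour and the study elsewhere calls it liver. The labels do not say that arrays of a group came from separate animals, so the p-values measure the spread between these 6 samples only.

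An N-glycan starts as a sugar chain built on dolichol, a long lipid of the endoplasmic reticulum (ER) membrane. Cytosolic enzymes make the activated sugars GDP-mannose and UDP-N-acetylglucosamine (UDP-GlcNAc), the ALG enzymes add sugars first on the cytosolic and then on the luminal face, and the oligosaccharyltransferase moves the finished chain to asparagine residues of proteins entering the ER. Glucosidases then trim the chain while the protein folds. Hepatocytes secrete most plasma glycoproteins and depend heavily on this pathway.

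The genes of the pathway were on balance lower in AAV-PIK3CD. Of the 37 members, 29 had a mean below that of the controls and 8 a mean above it, which became 25 and 12 after quantile normalization and 31 and 6 after each array was centred on its median. A mean difference below 0 was found in 78.4% of members and in 51.5% of all probe sets (of the brighter 50% of probe sets, which held 35 members, 59.2% were below 0, against 80.0% of those members). The median difference, AAV-PIK3CD minus AAV-control on the log2 scale, was -0.14 over the members, against -0.01 over all 19505 gene symbols. Within the brighter 50% of probe sets it was -0.14 over the 35 members there, against -0.04 over those probe sets. Gmppb, which makes GDP-mannose, fell by 0.82, and it was the 1 member past the rank products test (adjusted p = 0.0409, Benjamini-Hochberg over all probe sets). Rank products called 0.0405% of all probe sets in either direction, 8 lower (0.036%) and 1 higher (0.0045%). This balance rested on single arrays, with 1 lower and 5 higher without array 49, 2 lower and 3 higher without array 50, and 1 of each without array 53.

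In 7 members each AAV-PIK3CD array was lower than every control array, and in 0 members was each higher. These were Gmppa and Gmppb of GDP-mannose supply, Gfpt1 and Uap1 of UDP-GlcNAc supply, the luminal mannosyltransferases Alg9 and Alg12, and the folding sensor Uggt1. The share was 18.9% of the members, against 4.97% of all probe sets in the lower direction and 4.47% in the higher direction. Within the brighter 50% of probe sets it was 7 of 35 members (20.0%), against 6.26% lower and 3.57% higher. The exact 2-sided permutation test of a single gene gives p = 0.1 for such a gene, the smallest value that 3 against 3 allows. At an unadjusted p under 0.05, 6 members were lower by rank products (2.84% of all probe sets) and 7 by limma (2.58%), with 0 higher by either (2.86% and 2.49%). By limma 0 of the 22206 probe sets passed after Benjamini-Hochberg adjustment, and 1127 (5.08%) had an unadjusted p under 0.05 in either direction, as did 1265 (5.7%) by rank products.

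**Figure D1:**
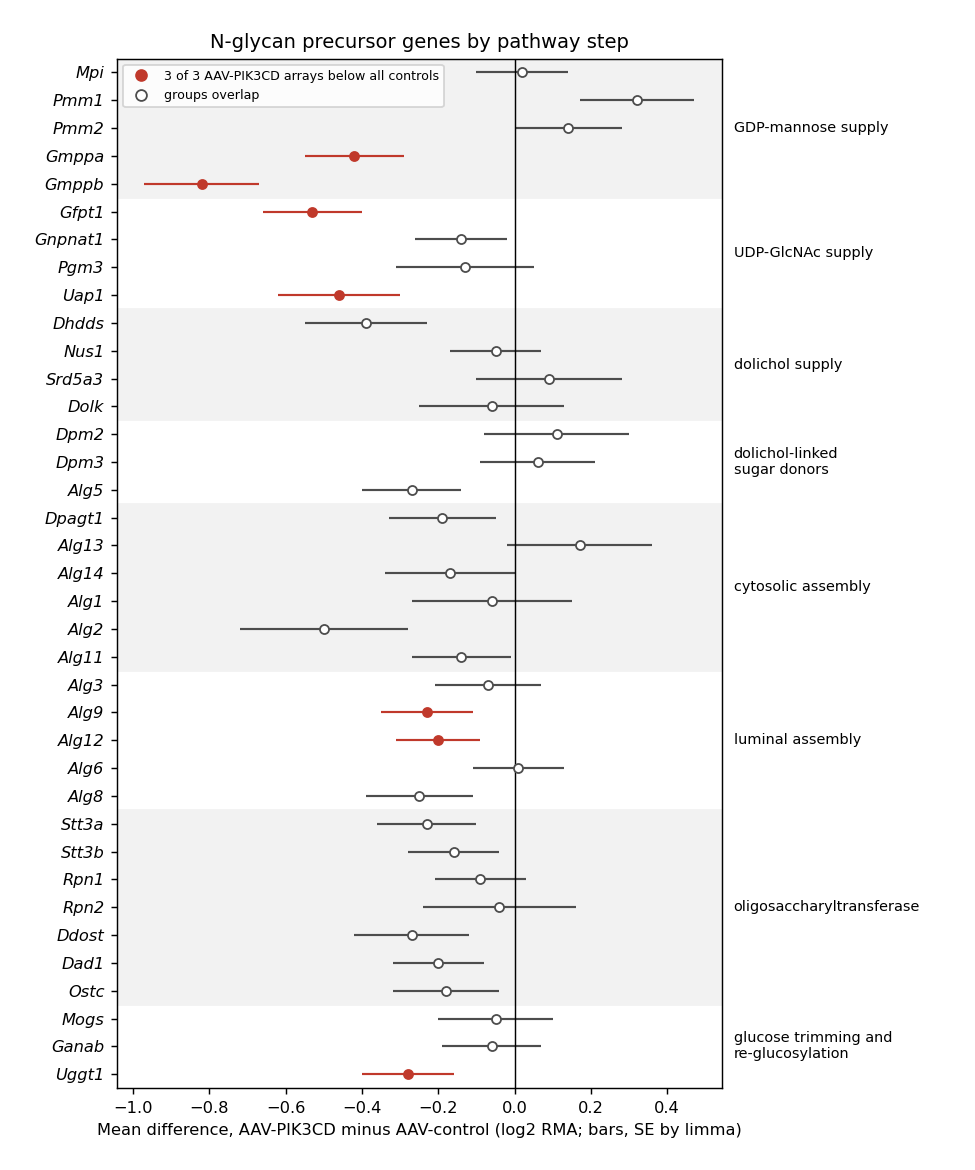
Mean difference of each member, AAV-PIK3CD minus AAV-control on the log2 RMA scale (x axis), in the order of the pathway (y axis), with the limma SE as bars and filled red points where each AAV-PIK3CD array was lower than every control. The differences run from -0.82 (Gmppb) to 0.32 (Pmm1), with 29 of 37 below 0 as deposited (25 after quantile normalization and 31 after median centring).

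Mean levels of hepatocyte markers were alike in range in both groups. All 14 measured markers lay above the array median in all 6 arrays, and their mean log2 level was 11.85 to 12.02 over the 6 arrays, with overlapping groups. Of these markers, 7 were below and 7 above the control mean, with a median difference of -0.01. Single markers differed by -0.16 to 0.59, and 2 were higher at an unadjusted rank products p under 0.05 (2.86% of all probe sets). Pancreatic acinar markers stood out in array 51, where 16 of 18 were highest and the mean level was 7.41, against 3.78 to 3.92 in the other arrays. Skeletal and smooth muscle markers had a mean level of 4.97 in array 51 and 3.92 to 4.06 elsewhere. Plasma cell and B cell markers lay near background, with 7 of 8 below the array median in all arrays. Cholangiocyte markers had a higher mean level in AAV-PIK3CD (4.36, 4.79 and 4.26) than in AAV-control (3.88, 4.08 and 4.14). Of these, 8 of 10 were above the control mean and 1, Dmbt1, passed rank products as higher, while 6 of the 10 lay below the array median in all arrays. Their median deviation from the control mean was -0.10, 0.02 and -0.04 in AAV-control and 0.00, 0.25 and 0.15 in AAV-PIK3CD. Their median difference was 0.18, while 1 marker differed by 2.67, which weighs on a mean over 10 markers. Their part in the members' differences was not tested. The mean levels of neutrophil markers were 3.88 to 3.96 in AAV-control and 3.85 to 3.95 in AAV-PIK3CD. Those of endothelial markers were 7.44 to 7.64 and 7.39 to 7.57, and those of stellate cell markers 6.38 to 6.42 and 6.42 to 6.50. Of 8 endothelial markers, 4 were below and 4 above the control mean. Lower without overlap were 2 of these 8 and 1 of 9 neutrophil markers, against 4.97% of all probe sets. Pik3cd itself read 4.66, 4.34 and 4.48 in AAV-control and 4.78, 5.14 and 4.86 in AAV-PIK3CD. Its groups did not overlap (exact 2-sided permutation p = 0.1), as in 4.47% of all probe sets in the higher direction. Its difference of 0.43 (SE 0.14) did not pass over all probe sets (adjusted p = 0.679 by rank products). All control values and array 51 lay below the median of their array, where background limits any fold. In bulk tissue, fewer cells of a type and less RNA per cell cannot be told apart.

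GDP-mannose supply held both the member with the largest negative difference, Gmppb, and the member with the highest positive difference, Pmm1. In what follows, log2 values are given for arrays 48, 49 and 50 and then for arrays 51, 52 and 53. Gmppb, the catalytic subunit of GDP-mannose pyrophosphorylase (GRCm38.p6, chr9:108049239-108051923), read 6.54, 6.13 and 6.59 in AAV-control and 5.72, 5.60 and 5.47 in AAV-PIK3CD. The groups were 0.41 apart at their nearest arrays, with control array 49 the lowest of the controls and array 53 the lowest of all. The means were 6.42 ± 0.25 and 5.60 ± 0.13 (SD, n = 3 each), a 1.77-fold lower level (difference -0.82, SE 0.15). By limma its p was 0.00021 before and 0.932 after Benjamini-Hochberg adjustment. The rank products call was kept without array 51 (adjusted p = 0.0187) and lost without array 48 (0.376), 49 (0.0882), 50 (0.346), 52 (0.137) or 53 (0.167). It was also lost after quantile normalization (rank products, adjusted p = 0.0538), while the difference stayed between -0.97 and -0.74 with each array left out. Gmppb is also the 1 member in the list of regulated genes that the study drew from these arrays, so that list is no independent evidence of its direction. The text of the study speaks of upregulated genes in these livers, whereas Gmppb was lower here. Which direction the study's list gives for Gmppb is not reported here.

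Gmppa, the regulatory subunit of the same enzyme (chr1:75435911-75443179), read 6.86, 7.01 and 7.10 in AAV-control and 6.64, 6.37 and 6.69 in AAV-PIK3CD. The groups did not overlap, and array 52 was the lowest. Its difference was -0.42 (SE 0.13; rank products, adjusted p = 0.748). The contrast of Gmppb with Gmppa, the difference of one minus that of the other, was -0.40 (SE 0.21), and the array values of this contrast overlapped between the groups (exact 2-sided permutation p = 0.2, adjusted p = 0.35 over the 7 gene pairs compared). As this exact test of 3 against 3 arrays cannot go below p = 0.1, no gene pair could pass, whatever its contrast.

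The 3 enzymes upstream of the pyrophosphorylase had means above those of the controls as deposited, with Mpi at -0.01 after median centring. Pmm1, a phosphomannomutase, read 7.04, 7.12 and 6.77 in AAV-control and 7.40, 7.44 and 7.06 in AAV-PIK3CD. Arrays 51 and 52 lay above all controls while array 53 lay among them, for a difference of 0.32 (SE 0.15; rank products, adjusted p = 0.901). Pmm2, the phosphomannomutase mutated in the most common human congenital disorder of glycosylation, differed by 0.14 (SE 0.14), and Mpi, which makes mannose phosphate from fructose phosphate, by 0.02 (SE 0.12). The contrast of Gmppb with Pmm1, a pair chosen after its values were seen, was -1.15 (SE 0.25), with no overlap between the groups (exact permutation p = 0.1, adjusted p = 0.35).

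All 4 enzymes that make UDP-GlcNAc had a mean below that of the controls, and the first and the last of the chain differed most. Gfpt1, the rate-limiting entry enzyme of the hexosamine pathway (chr6:87042846-87092207), read 7.78, 7.73 and 8.09 in AAV-control and 7.28, 7.36 and 7.37 in AAV-PIK3CD. The AAV-PIK3CD arrays were within 0.09 of each other and all lay below the lowest control, and array 50 was the highest. The means were 7.87 ± 0.20 and 7.34 ± 0.05, a 1.44-fold lower level (difference -0.53, SE 0.13; rank products, adjusted p = 0.6), and the difference was -0.42 without array 50.

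Uap1, the pyrophosphorylase that yields UDP-GlcNAc (chr1:170141223-170174964), read 7.06, 6.93 and 7.52 in AAV-control and 6.78, 6.72 and 6.62 in AAV-PIK3CD. The groups did not overlap, and array 50 stood above the other controls. Its difference of -0.46 (SE 0.16; rank products, adjusted p = 0.706) was -0.29 without array 50. Gnpnat1, which acetylates glucosamine phosphate, differed by -0.14 (SE 0.12), and Pgm3, the mutase that follows it, by -0.13 (SE 0.18), with overlapping groups. Without array 50 Pgm3 differed by 0.04. Gfpt2, the isoenzyme of Gfpt1 that is sparse in hepatocytes, was no member and differed by 0.14 (SE 0.18). The contrast of the isoenzymes was -0.67 (SE 0.33; exact permutation p = 0.2).

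**Figure D2:**
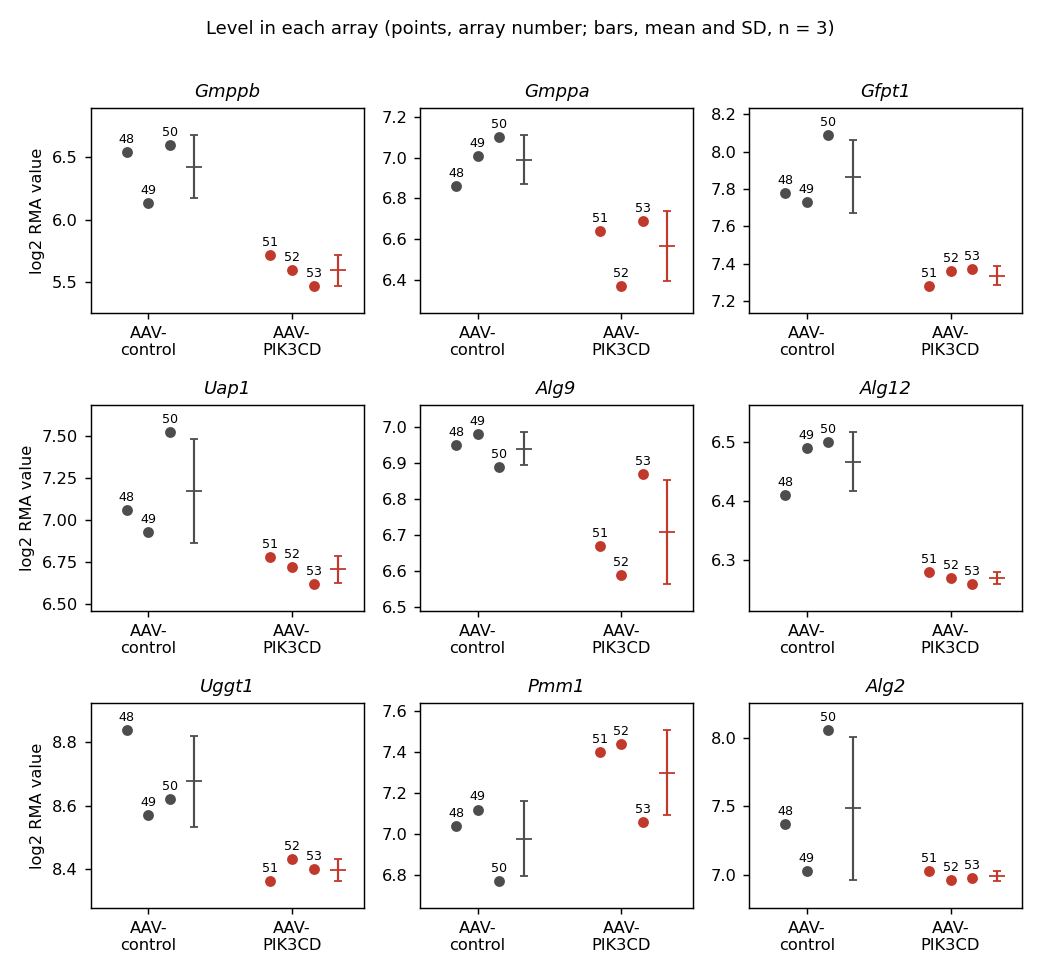
Log2 RMA values (y axis) of 9 members in each array, AAV-control in grey and AAV-PIK3CD in red, with the array number at each point and the mean and SD (n = 3) beside them; each panel has its own y axis. The groups do not overlap in the first 7 panels, while Pmm1 overlaps through arrays 49 and 53 and Alg2 through a tie at 7.03.

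The promoters of the lower members were read for letters known from promoters of the unfolded protein response, because this response is known to raise genes of ER folding and glycosylation. In RefSeq promoters (GRCm38.p6, 250 bases before to 50 after the start site), 31 of the 37 members had an entry, and Gmppb and Alg2 were without one. The 3 members below are those with the smallest rank products p among lower members that have an entry, 5′ to 3′ on the strand of the gene. Capitals mark CCACG on either strand, the letters that end the ER stress response element, a motif in which they follow a CCAAT box at a fixed distance.
Gfpt1 promoter (chr6:87042596-87042895, plus strand): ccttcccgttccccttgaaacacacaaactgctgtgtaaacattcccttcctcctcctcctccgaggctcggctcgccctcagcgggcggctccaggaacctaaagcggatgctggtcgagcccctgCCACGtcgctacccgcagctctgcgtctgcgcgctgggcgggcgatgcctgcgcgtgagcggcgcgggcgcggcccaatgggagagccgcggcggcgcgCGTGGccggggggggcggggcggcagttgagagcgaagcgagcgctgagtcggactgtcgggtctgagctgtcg
Uap1 promoter (chr1:170174915-170175214, minus strand): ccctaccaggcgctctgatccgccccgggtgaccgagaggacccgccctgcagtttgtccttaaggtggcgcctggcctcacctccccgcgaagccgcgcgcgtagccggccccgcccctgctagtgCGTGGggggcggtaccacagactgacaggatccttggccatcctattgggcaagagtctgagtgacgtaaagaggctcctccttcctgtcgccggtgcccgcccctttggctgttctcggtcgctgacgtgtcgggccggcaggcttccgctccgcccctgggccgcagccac
Gmppa promoter (chr1:75435686-75435985, plus strand): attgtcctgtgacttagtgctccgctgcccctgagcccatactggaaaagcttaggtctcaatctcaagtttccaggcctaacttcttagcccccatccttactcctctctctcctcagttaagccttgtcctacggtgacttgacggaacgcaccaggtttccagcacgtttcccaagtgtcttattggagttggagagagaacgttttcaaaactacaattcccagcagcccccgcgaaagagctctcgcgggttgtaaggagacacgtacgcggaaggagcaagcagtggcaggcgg
Gfpt1 held these letters from -123 to -119 on its own strand and from -24 to -20 on the opposite strand, Uap1 held them from -123 to -119 on the opposite strand, and Gmppa had no match.

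Across the members with an entry, 18 of 31 promoters (58.1%) held CCACG on either strand, against 32.8% of all 32851 promoters and 38.3% of the 15691 promoters of genes on the array. The median GC content was 62.3% in the members and 57.0% in the genes on the array, and its part in this share was not tested. Of the 6 members with an entry whose groups did not overlap, 3 held CCACG. The full element was found in 1 member, Alg12 (3.23%, against 0.119% of all promoters and 0.172% of those of genes on the array). This share of the members rests on 1 match. The second form of that element, the letters TGACGTGG of the unfolded protein response element and the letters TGATGNAAT of the amino acid response element were found in 0 of 31. Their shares were 0.0365%, 0.676% and 0.965% of all promoters, and 0.0446%, 0.727% and 0.809% of those of genes on the array. A match is a run of letters in this window and not a measured binding site.

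The 4 genes of dolichol supply differed by -0.39 to 0.09, and their groups overlapped as deposited. Dhdds, the catalytic subunit of the prenyltransferase that makes the dolichol chain, read 7.72, 7.95 and 8.27 in AAV-control and 7.41, 7.65 and 7.72 in AAV-PIK3CD. The groups met in a tie at 7.72 between arrays 48 and 53, and the difference was -0.39 (SE 0.16; rank products, adjusted p = 0.836), or -0.24 without array 50. After quantile normalization and after median centring the groups of Dhdds did not overlap. Its partner subunit Nus1 differed by -0.05 (SE 0.12), and Dolk, the kinase that yields dolichol phosphate, by -0.06 (SE 0.19). Srd5a3, a reductase of dolichol synthesis, read 6.66, 6.65 and 7.38 in AAV-control and 7.12, 6.83 and 7.02 in AAV-PIK3CD. Array 50 was far above the other controls, and the difference of 0.09 (SE 0.19) became 0.34 without that array and -0.03 without array 48 or 49. The sign of Nus1 also changed, to 0.02 after quantile normalization.

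Of the enzymes that load mannose or glucose onto dolichol phosphate, 3 were measured. Alg5, the glucose-loading synthase, read 7.93, 7.82 and 7.72 in AAV-control and 7.41, 7.72 and 7.54 in AAV-PIK3CD. Array 52 tied with array 50 and the other AAV-PIK3CD arrays lay below all controls, for a difference of -0.27 (SE 0.13). Dpm2, a membrane subunit of dolichol-phosphate mannose synthase, read 5.58, 5.94 and 5.08 in AAV-control and 5.72, 5.58 and 5.63 in AAV-PIK3CD. The AAV-PIK3CD values lay inside the range of the controls, and the difference of 0.11 (SE 0.19) was -0.12 without array 50. Dpm3, the subunit that tethers the catalytic one, differed by 0.06 (SE 0.15).

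Of the 6 enzymes that assemble the chain on the cytosolic face, 5 had a mean below that of the controls and 0 had groups that did not overlap. Alg2, which adds mannose to the growing chain, read 7.37, 7.03 and 8.06 in AAV-control and 7.03, 6.96 and 6.98 in AAV-PIK3CD. The AAV-PIK3CD arrays lay within 0.07 of each other and the controls over a range of 1.03, with a tie at 7.03 between arrays 49 and 51. Its difference of -0.50 (SE 0.22) had an unadjusted rank products p of 0.00539 (adjusted p = 0.613) and was -0.21 without array 50. Dpagt1, which starts the chain and is the target of tunicamycin, read 7.83, 7.71 and 8.10 in AAV-control and 7.83, 7.51 and 7.73 in AAV-PIK3CD. The groups overlapped, and the difference of -0.19 (SE 0.14) was -0.08 without array 50. Alg14, the membrane anchor of the enzyme that adds the second sugar, differed by -0.17 (SE 0.17; 0.00 without array 51), Alg1, which adds the first mannose, by -0.06 (SE 0.21; 0.20 without array 50) and Alg11, which adds the last cytosolic mannoses, by -0.14 (SE 0.13). Alg13, the catalytic partner of Alg14, differed by 0.17 (SE 0.19), but it lay below the array median in all arrays, where background limits any fold.

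On the luminal face, 4 of 5 measured enzymes had a mean below that of the controls. Alg12, a mannosyltransferase, read 6.41, 6.49 and 6.50 in AAV-control and 6.28, 6.27 and 6.26 in AAV-PIK3CD. Both groups were tight, with SDs of 0.05 and 0.01, and 0.13 apart, and the difference of -0.20 (SE 0.11) stayed between -0.23 and -0.18 with each array left out. It did not pass over all probe sets (rank products, adjusted p = 1.0). The Alg12 promoter is shown because it held the full ER stress response element, on its own strand from -220 to -202, and was chosen after this match was seen; capitals mark the element and a further CCACG.
Alg12 promoter (chr15:88819269-88819568, minus strand): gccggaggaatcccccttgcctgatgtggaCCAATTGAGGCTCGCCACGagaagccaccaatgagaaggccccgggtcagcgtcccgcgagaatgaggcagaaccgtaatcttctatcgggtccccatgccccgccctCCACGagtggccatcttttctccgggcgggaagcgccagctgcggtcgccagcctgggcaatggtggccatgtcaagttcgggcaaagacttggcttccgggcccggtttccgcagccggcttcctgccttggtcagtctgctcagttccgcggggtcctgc

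Alg9, the mannosyltransferase that acts before and after Alg12, read 6.95, 6.98 and 6.89 in AAV-control and 6.67, 6.59 and 6.87 in AAV-PIK3CD. Array 53 lay only 0.02 below the lowest control, and the groups overlapped after quantile normalization. Its difference was -0.23 (SE 0.12). Alg8, a glucosyltransferase of the chain's end, read 4.41, 4.66 and 4.82 in AAV-control and 4.31, 4.35 and 4.48 in AAV-PIK3CD. Only its value in array 50 reached the array median (4.81 to 4.87), and below that median background limits any fold. The groups of Alg8 overlapped through arrays 48 and 53, with a difference of -0.25 (SE 0.14) that was -0.16 without array 50. Alg3, the first luminal mannosyltransferase, differed by -0.07 (SE 0.14) and Alg6, which adds the first glucose, by 0.01 (SE 0.12), which was -0.03 after median centring.

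The oligosaccharyltransferase differed little but in 1 direction as deposited. All 7 subunits that were measured members had a mean below that of the controls (6 of 7 after quantile normalization, where Rpn2 lay at 0.02). Their median difference was -0.18, and the groups overlapped in each of the 7. Subunits outside the list, such as Tmem258, were read with the related genes. Ddost, a subunit needed for the stability of the complex, read 9.0, 9.17 and 9.31 in AAV-control and 8.63, 8.91 and 9.12 in AAV-PIK3CD. Array 53 lay among the controls, and the difference of -0.27 (SE 0.15) was -0.15 without array 51, the array with high acinar markers. Stt3a, the catalytic subunit that glycosylates proteins during translocation, read 10.80, 10.71 and 11.03 in AAV-control and 10.64, 10.49 and 10.72 in AAV-PIK3CD. Array 53 lay 0.01 above the lowest control, and the difference of -0.23 (SE 0.13) was -0.14 without array 50. The other catalytic subunit, Stt3b, which acts on sites missed during translocation, differed by -0.16 (SE 0.12). The contrast of Stt3a with Stt3b was -0.07 (SE 0.09; exact permutation p = 0.5). Dad1, a small subunit whose loss leads to cell death, differed by -0.20 (SE 0.12), Ostc, a subunit of the Stt3a complex, by -0.18 (SE 0.14), and the ribophorins Rpn1 and Rpn2 by -0.09 (SE 0.12) and -0.04 (SE 0.20), the latter 0.16 without array 50.

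Of the enzymes that act on the transferred chain, Uggt1 differed most. Uggt1, which puts glucose back on misfolded glycoproteins so that they re-enter the chaperone cycle, read 8.84, 8.57 and 8.62 in AAV-control and 8.36, 8.43 and 8.40 in AAV-PIK3CD. The groups were 0.14 apart, and array 48 was the highest. The means were 8.68 ± 0.14 and 8.40 ± 0.04 (difference -0.28, SE 0.12), with an unadjusted limma p of 0.0437 and a rank products adjusted p of 0.95. Ganab, the catalytic subunit of the glucosidase that removes the inner glucoses, read 8.49, 8.64 and 8.81 in AAV-control and 8.65, 8.44 and 8.66 in AAV-PIK3CD. These ranges overlapped almost wholly, and the difference of -0.06 (SE 0.13) was 0.01 after quantile normalization. Mogs, which removes the outermost glucose, differed by -0.05 (SE 0.15) as deposited and by 0.00 after quantile normalization. Uggt2, the paralog of Uggt1 and no member, differed by -0.15 (SE 0.12), and the contrast of the paralogs was -0.13 (SE 0.06; exact permutation p = 0.2).

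Across arrays, control array 50 stood above the others for most members. It gave the highest value for 22 of 37 members (59.5%), while it gave the highest value for 21.7% of all probe sets. Array 53 gave the highest value for 0 members, array 51 the lowest for 11 and array 52 the lowest for 9. The median deviation of the members from the control mean was -0.05, -0.04 and 0.15 in arrays 48, 49 and 50 and -0.19, -0.20 and -0.07 in arrays 51, 52 and 53. Arrays 48 and 49 were thus close to array 53 and above arrays 51 and 52. Without array 50 the members' median difference was -0.10, with 25 of 37 below 0. In the same array 8 of 11 Kupffer cell markers were highest, with a mean level of 7.07 against 6.69 to 6.83 in the other arrays. By group, 9 of the 11 were below the control mean, with a median difference of -0.14 that was -0.03 without array 50. Their part in the members' levels and differences was not tested. Without array 51, the array with high acinar markers, the members' median difference was -0.15, with 27 of 37 below 0. Of the 29 lower members, 20 stayed below 0 with each array left out. For the 7 without overlap this follows from how they were picked, and of the other 22 lower members it held for 13.

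**Figure D3:**
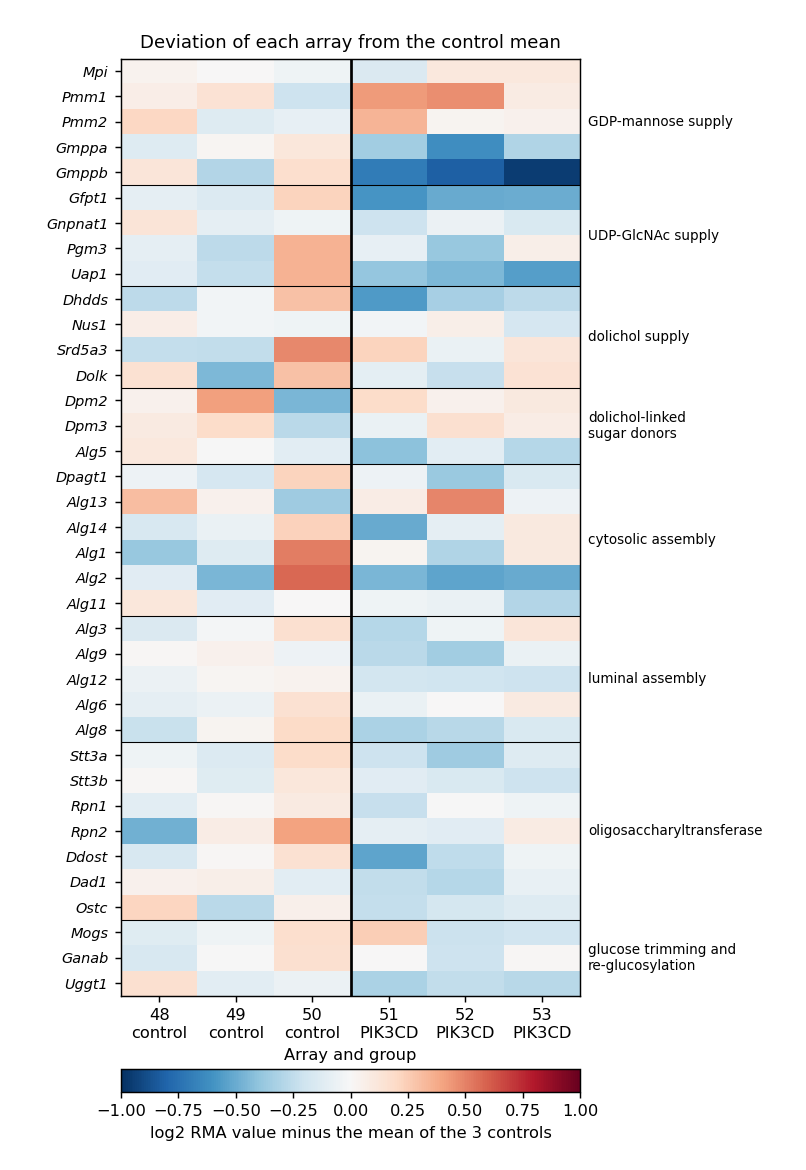
Log2 RMA value of each member (rows, by pathway step) minus the mean of the 3 controls, in each array (columns), in blue below and red above that mean. Gmppb, Gmppa, Gfpt1 and Uap1 are blue in arrays 51, 52 and 53, and array 50 is red for most members, 22 of which have their highest value there.

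Related genes outside the list differed unevenly. For comparison, 51.5% of all probe sets had a mean difference below 0, 4.97% were lower without overlap and 4.47% higher without overlap. In the brighter 50% of probe sets these shares were 59.2%, 6.26% and 3.57%. Of 23 measured ER chaperones and degradation factors, 23 had a mean below that of the controls, also after quantile normalization and after median centring, with a median difference of -0.22 and 10 without overlap. They included Dnajb9, a BiP co-chaperone (-0.84, SE 0.24; rank products, adjusted p = 0.0522), and Syvn1, a ligase of ER-associated degradation (-0.70, SE 0.12; rank products, adjusted p = 0.126). Unlike the members, this list had its lowest control median in array 50, at -0.05. Of 23 measured Golgi enzymes that process N-glycans, 19 were below the control mean, with a median difference of -0.15, against -0.14 over the members. Of these 23, 6 did not overlap on the lower side and 1 on the higher. Mgat2, which opens the branch towards complex glycans, read 9.96, 9.80 and 10.36 in AAV-control and 9.55, 9.60 and 9.50 in AAV-PIK3CD, with no overlap and a difference of -0.49 (SE 0.15). B4galt1, which adds galactose, differed by -0.44 (SE 0.14), also with no overlap. By rank products and by limma, 0 genes of either list passed after Benjamini-Hochberg adjustment.

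Of 14 other genes that use dolichol-phosphate mannose, 12 were below the control mean and 0 were without overlap, with a median difference of -0.13. The O-mannosyltransferase Pomt1 differed by -0.42 (SE 0.15) and Pigm, a mannosyltransferase of glycosylphosphatidylinositol anchors, by -0.38 (SE 0.15). Of 20 further genes of N-glycan assembly and sugar nucleotide supply, 12 were below and 8 above, with a median difference of -0.07 that was 0.01 without array 49. Tmem258, an oligosaccharyltransferase subunit, differed by -0.29 (SE 0.23) and Gnpda1, which returns glucosamine phosphate to glycolysis, by 0.28 (SE 0.19). Of 24 acute phase proteins, 20 were below the control mean, with a median difference of -0.10 and 2 without overlap on the lower side. Saa2, Saa1 and Hamp passed rank products as lower, but their groups overlapped and each had a limma adjusted p of 0.932. The AAV-PIK3CD arrays of Saa2 spread widely, with an SD of 1.66.

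**Figure D4:**
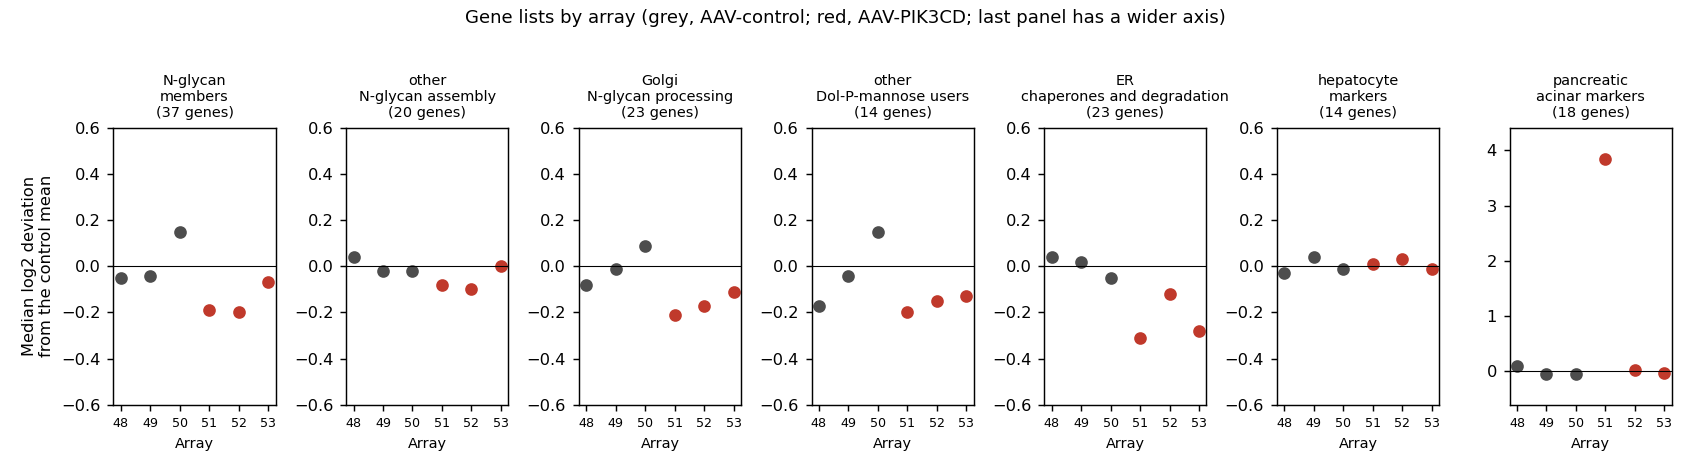
Median log2 deviation from the control mean (y axis) of each gene list in the 6 arrays (x axis; grey, AAV-control; red, AAV-PIK3CD). The members lie at -0.19, -0.20 and -0.07 in arrays 51, 52 and 53 and at 0.15 in array 50, hepatocyte markers stay near 0, and acinar markers reach 3.85 in array 51.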

How the data were processed

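Affymetrix Clariom S mouse arrays were hybridised with 100 ng of total RNA each. The deposited values are log2 intensities with 2 decimals, which the authors normalised by RMA (background correction, quantile normalisation and summary over probes). Its software version, summary level and build are not given in the sources used here. All 22206 probe sets were tested without a filter, and array medians were 4.81 to 4.87. No depth exists for arrays, and 3 per group limit the precision. The platform annotation named 1 symbol for 19572 probe sets and left 2634 unnamed, and of several probe sets per symbol (55 symbols) the one with the highest mean stood for the gene.

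Groups were taken from the labels. Rank products, the test named by the study, compared them over 9 array pairs with 1000 seeded shuffles of gene order within each array. Its p-values were 2-sided, with Benjamini-Hochberg adjustment over all probe sets at 0.05. limma 3.58.1 (R 4.3.3) gave the standard errors and was an alternative, as were the methods' t-test, quantile normalization, median centring, filters on the dimmest 25% or 50% of probe sets, the mean per symbol, and each array left out. Contrasts of gene pairs were tested by exact permutation. Both tests were tested on simulated data. Tables and figures were made in Python 3.11.15 (pandas 2.3.3, scipy 1.17.1, numpy 2.4.6, matplotlib 3.10.9).

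Every member was accounted for. Values per array were given for members past rank products or limma, members without overlap, and the 2 members of largest difference in each of the 8 pathway steps, and at most 2 genes were named per related list, with the isoenzymes Gfpt2 and Uggt2 and the 3 called acute phase genes beyond it. Members and lists were chosen with earlier results of these data known. RefSeq promoters (GRCm38.p6) were searched on both strands, and CCACG is contained in the ER stress response element.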

Additional observations from a re-analysis of the deposited data

How the results depend on the processing

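The members' median difference stayed below 0 under every alternative run, at -0.09 after quantile normalization, -0.17 after median centring, -0.14 without Gmppb (chosen after seeing the data) and -0.20 to -0.10 with each array left out. The call of Gmppb was less stable: against 1 member called by rank products, 0 were called after quantile normalization, without the dimmest 25% or 50% of probe sets, by limma or by the methods' t-test after Benjamini-Hochberg, 5 by that t-test at an unadjusted p under 0.05, and 0 to 1 with each array left out. Over the whole array the 9 calls became 5 and 2 under the filters, 0 by limma, 1059 and 0 by the t-test before and after adjustment, and 1 to 11 with each array left out. After quantile normalization the whole-array calls were 6 lower and 2 higher. The cause of these changes was not tested. The 7 members without overlap became 12 after median centring, where 7.24% of all probe sets did so, and 9 to 14 with an array left out, where the comparison of fewer arrays raised the share of all probe sets to between 8.82% and 11.2%. The brighter 50% of probe sets as background, also chosen after seeing the data, gave 6.26% in place of 4.97%. With an array left out, the sign turned for 15 of 37 members: Ganab (-0.14 to 0.02, and 0.01 after quantile normalization), Srd5a3 (-0.03 to 0.34), Dpm2 (-0.12 to 0.31), Alg1 (-0.25 to 0.20), Rpn2 (-0.28 to 0.16), Dolk (-0.28 to 0.09), and Alg3, Alg6, Alg13, Alg14, Dpm3, Mogs, Mpi, Nus1 and Pgm3. No paired analysis was possible because the groups share no replicate numbers. With 3 arrays a group, differences of the size of most members could not be told from the spread between arrays.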
